A study of Emberiza melanocephala with 4 samples.

Results

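Of the 750 loci joined from the 4 transcript assemblies, 369 (49.2%) had no reference gene, and these assembled loci are described here. A member is a group of transcripts that carry no reference transcript, joined across files where their exons had 1 base or more of the same strand in common, and with no exon on an exon of a listed reference transcript of that strand. Of 498 transcripts without a reference, 467 belong to the 369 loci, and 31 went with a reference gene that they overlapped. The remaining 381 loci hold a reference gene and serve as the comparison.

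The RNA came from wild-caught black-headed buntings (Emberiza melanocephala), a migratory songbird, and was sequenced by 454 pyrosequencing, which gives few but long reads. The 4 libraries are titled SD Hy, LD Hy, SD Li and LD Li, where Hy stands for hypothalamus, Li for liver, SD for short day and LD for long day, with 1 library each. The labels give no number of birds, no age and no sex, and do not say whether birds were pooled. With no replicates there is no error and no test, and every comparison below sets 1 library against another.

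The reads of the bunting had been aligned to the genome of the collared flycatcher (build FicAlb_1.4), another songbird, and assembled with the flycatcher annotation as a guide. A guided assembler reports an annotated transcript where reads match it, and builds a transcript of its own where reads pile up or are spliced without matching one. Such a transcript can be an untranslated end of a known gene, part of a gene whose annotated form differs, an unannotated gene or noncoding RNA, or RNA of a repeated sequence. These kinds could not be told apart here, because the genome sequence and the full annotation were not used, and no sequence is shown.

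The labels of the libraries are uncertain in 2 respects. The recorded seasonal state contradicts the titles LD Hy (recorded as short day) and SD Li (recorded as long day). Of 15 neuron genes, SD Hy listed 0, LD Hy 2, SD Li 0 and LD Li 4. Among them was SNAP25, which acts in the fusion of synaptic vesicles, at 290 FPKM in LD Hy and 462 in LD Li. FPKM is a level scaled for transcript length and library depth. The neuron genes summed to 329 FPKM in LD Hy and 561 in LD Li. Of 9 glial genes, LD Hy and LD Li listed 2 each, summing to 133 and 331 FPKM, and both SD libraries 0. Of 18 liver genes, SD Hy and SD Li listed APOA1, an apolipoprotein of plasma, and ONECUT1, which encodes a hepatic transcription factor, with sums of 338 and 666 FPKM. Nearly all of each sum was APOA1, at 327 and 655 FPKM, with ONECUT1 at 10.9 and 11.1. LD Li listed APOA1 alone (20.9 FPKM) and LD Hy 0 of the 18. Albumin (ALB) and the 6 genes of red blood cells were listed in no library. Reference loci numbered 58 in SD Hy, 182 in LD Hy, 90 in SD Li and 251 in LD Li, so an absent marker says less in the SD libraries. The few markers listed thus go against the tissue label of SD Hy and of LD Li, and their part in the results below was not tested. The libraries are called by their titles throughout. Aligned sequence came to 15.8, 13.3, 20.8 and 17.8 megabases for SD Hy, LD Hy, SD Li and LD Li, as worked out by dividing coverage by FPKM.

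The loci were spread over 151 scaffolds, 141 on the plus strand, 163 on the minus strand and 65 without a strand. SD Hy listed 48 of them, LD Hy 98, SD Li 85 and LD Li 222. They made up 45.3%, 35.0%, 48.6% and 46.9% of the loci listed in each library, in this order. LD Li therefore listed more than any other library, and without it 196 loci would remain. Without SD Hy as well, 188 loci would remain.

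Most of the loci were spliced. A transcript with several exons stood at 272 of the 369 loci (73.7%), with a median of 5 exons among these, and 30 loci had a transcript of 10 or more exons. By library, 86.0% of the assembled transcripts of SD Hy had several exons, against 65.3% in LD Hy, 86.8% in SD Li and 70.7% in LD Li. Among reference transcripts these shares were 41.1%, 49.2%, 44.3% and 51.8%. The assembled share was the higher one in all 4 libraries, although exon counts of reference transcripts are those of the annotation. Every assembled transcript without a strand had 1 exon, and every spliced one had a strand. Nothing in the protocol says that strand was kept, so the strand given for the 32 stranded loci of 1 exon, and the separation of loci on opposite strands, are uncertain.

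The transcripts were short. The median exonic length of a locus was 593 bases, from 200 to 4165, and it was 643 bases for spliced loci and 468 bases for loci of 1 exon. Assembled transcripts had medians of 585, 624, 656 and 599 bases in SD Hy, LD Hy, SD Li and LD Li, while reference transcripts had 1221, 1508, 1223 and 1440 bases. Spliced loci spanned a median of 5994 bases of the genome, and 11 loci spanned over 100000. The longest span was 263427 bases. Introns of assembled transcripts had medians of 550, 864, 645 and 902 bases, from 54 to 95556 bases, next to 431, 1052, 748 and 1327 bases in reference transcripts. Reference lengths and introns are those of the annotation, listed also where few reads fell. Assembled ones cover only what was built from reads, so the measures are unlike.

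The longest exonic sequences and the highest exon counts belonged partly to the same loci. The plus-strand locus of JH603331.1 (109672 to 123085) was the longest, with 4165 exonic bases in 17 blocks, and was listed in SD Hy and SD Li. Another plus-strand locus, on JH603271.1 (630876 to 666106), had the most exons, 24, over 3419 exonic bases, and was listed in the same libraries. Next in exon number came a locus of 19 exons on JH603359.1 (275284 to 305188), listed in LD Li alone, 48221 bases upstream of RBM15B, which encodes an RNA-binding protein. A locus of 5 exons on JH603201.1 (4598682 to 4607424) held 3912 exonic bases in LD Hy and 3905 in LD Li, and its 4 introns were the same in both.

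Where a locus was listed in several libraries, its introns mostly had the same ends to the base. In the SD pair, 27 of the 33 shared loci were spliced in both libraries, and 152 of 159 introns of SD Hy and of 169 of SD Li were identical. The LD pair had 22 such loci among 35, with 86 identical introns of 102 in LD Hy and 109 in LD Li. In these pairs, every locus spliced in both libraries shared at least 1 intron. The same held for the 4 loci spliced in both libraries labelled hypothalamus and the 9 spliced in both labelled liver.

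Much of the remainder lay outside the stretch that both libraries had assembled. Counting only introns inside that stretch, and leaving out both loci of JH603816.1, 148 of 154 introns (96.1%) were identical in the SD pair, 82 of 82 in the LD pair, 11 of 11 between the hypothalamus labels and 42 of 42 between the liver labels. This count was chosen after the values were seen. The 6 introns that differed belonged to 3 loci: 3 to JH603194.1 (6220809 to 6234874), 2 to the locus of 17 blocks on JH603331.1 and 1 to the locus of 24 exons on JH603271.1. At the last of these SD Li held 2 separate transcripts, of 13 and 11 exons, in place of the one of SD Hy. All libraries were aligned to 1 genome and assembled with 1 guide annotation, so identical ends were not found independently of those.

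**Figure D1:**
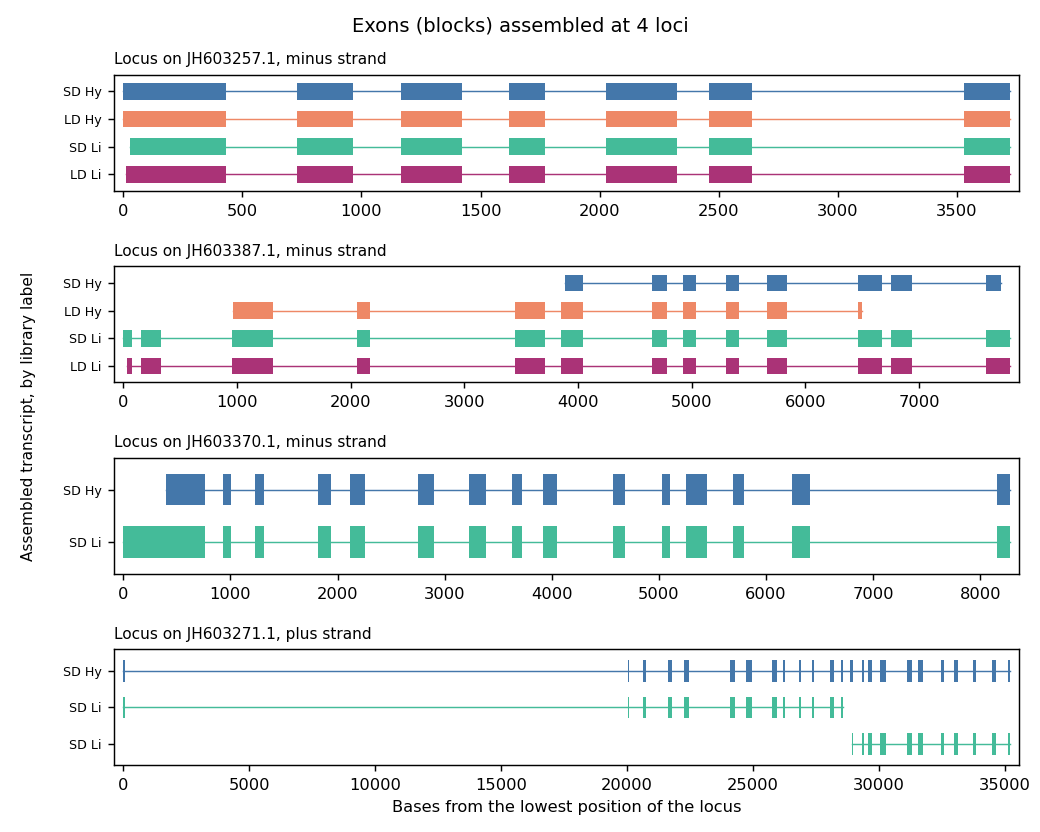
Exons (blocks) and introns (lines) of every transcript assembled at 4 spliced loci, in bases from the lowest position of the locus, coloured by library label. The 7 exons on JH603257.1 and the 15 on JH603370.1 line up between libraries except at the outer ends, the locus of JH603387.1 was assembled in part in SD Hy and LD Hy, and that of JH603271.1 is broken into 2 transcripts in SD Li.

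Coverage, the mean number of reads over a base, lay just above the assembler's lower limit for most loci. Assembled transcripts started at a coverage of 2.5 in all 4 libraries. Medians were 3.79, 2.87, 3.58 and 2.98 in SD Hy, LD Hy, SD Li and LD Li, and 26.0%, 58.4%, 36.3% and 52.0% of the assembled transcripts had a coverage under 3. Both SD libraries thus had fewer transcripts close to the limit than both LD libraries. Reference transcripts were listed far below it, with medians of 0.38, 0.35, 0.33 and 0.48, and reached 2.5 in 10 of 56, 13 of 183, 10 of 88 and 19 of 251 cases. No assembled transcript had an exon at coverage 0, while 1, 2, 2 and 0 reference transcripts did.

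**Figure D2:**
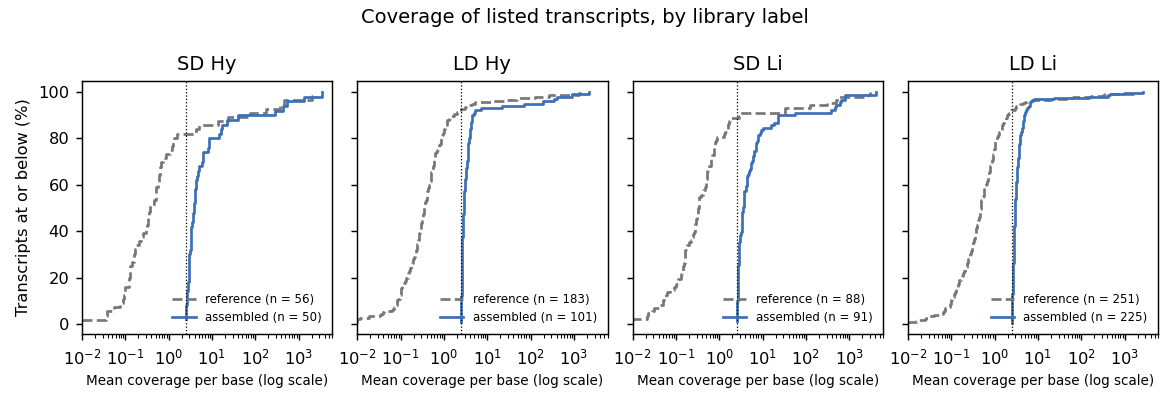
Share of transcripts at or below a given mean coverage per base (log scale; values under 0.01 drawn at 0.01) in each library, for assembled transcripts (solid) and reference transcripts (dashed). The dotted line is at 2.5, where the assembled curves start, while the medians of reference transcripts are between 0.33 and 0.48.

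Neither end of the spliced transcripts stood out in coverage. The last exon in the direction of transcription had more coverage than the first in 18 of 43 spliced transcripts of SD Hy (41.9%), 37 of 66 of LD Hy (56.1%), 36 of 79 of SD Li (45.6%) and 86 of 159 of LD Li (54.1%).

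Since FPKM follows from coverage by 1 factor per library, the coverage limit sets a floor on FPKM, at 159, 189, 120 and 141 in SD Hy, LD Hy, SD Li and LD Li. Median FPKM of the loci was 238, 217, 170 and 168, against 30.4, 30.4, 16.5 and 27.6 for reference loci. An unlisted assembled locus may have been just under the floor, and need not be at 0.

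Most of the FPKM of the assembled loci belonged to 5 of them. Assembled loci held 54.6%, 55.5%, 54.0% and 54.9% of the FPKM listed in SD Hy, LD Hy, SD Li and LD Li, and the 5 highest of each library alone 52.7%, 51.9%, 51.4% and 48.1%. Of the listed aligned bases, which are not divided by length, assembled loci held 94.5%, 90.9%, 94.3% and 88.5%. The same 5 loci led every library. Of all 369 loci, 8 exceeded 1000 FPKM in some library. Outside the leading 5, the loci held 1.95%, 3.62%, 2.55% and 6.85% of the listed FPKM, the most in LD Li.

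The 2 highest loci occupy the same interval of JH603816.1 on opposite strands (22792 to 24744). The minus-strand locus had 253430 FPKM in SD Hy, 198971 in LD Hy, 286579 in SD Li and 174825 in LD Li, so it was higher in each SD library than in either LD library. The plus-strand locus had 84814, 83010, 53331 and 77962 FPKM, and here SD Li was the low library. They shared 1294 exonic bases. The introns, 3 on the minus and 2 on the plus strand and between 116 and 655 bases long, had no pair with the same ends on both strands. Together both loci held 41.0%, 33.7%, 43.0% and 30.3% of all aligned bases, and the other 367 loci 3.25%, 3.07%, 3.83% and 4.66%. Because the strands cannot be separated with confidence, the sum is firmer than either value.
 
The other 3 of the leading loci lay on JH604008.1, JH603866.1 and JH603418.1. The locus on JH604008.1 (14138 to 14467, minus strand) had 1 exon of 330 bases and 33917, 26657, 37508 and 23179 FPKM in SD Hy, LD Hy, SD Li and LD Li. Its order over the libraries was that of the minus-strand locus of JH603816.1. The locus on JH603866.1 (8855 to 9741, plus strand) had 18008, 5415, 17875 and 8519 FPKM and lay 2450 bases from ENSFALG00000015949, an annotated feature without a symbol. It was assembled over 500, 807, 497 and 534 bases in SD Hy, LD Hy, SD Li and LD Li, with an intron in LD Hy alone. The fifth, on JH603418.1 (568821 to 569051), had 231 bases, no strand and 2472, 1627, 2663 and 1309 FPKM. All 3 were higher in both SD libraries than in both LD libraries.

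Most loci were listed once. A single library held 302 of the 369 (81.8%), another 57 stood in 2 libraries, 3 in 3 and 7 in every one, while 61.7% of the 381 reference loci were listed in 1 library. LD Li alone listed 179, LD Hy alone 62, SD Li alone 48 and SD Hy alone 13. Of the 57 loci in 2 libraries, 28 were in LD Hy and LD Li, 23 in SD Hy and SD Li, 3 in SD Li and LD Li, 2 in SD Hy and LD Li, 1 in LD Hy and SD Li and 0 in SD Hy and LD Hy. Libraries with the same season in the title thus made up 51 of these pairs. Such pairs also held most of the 108 reference loci in 2 libraries, but among these only the LD set stood out, with 80. Another 9 were in SD Li and LD Li, 7 in SD Hy and SD Li, and 2 in SD Hy and LD Hy. SD Hy with LD Li and LD Hy with SD Li held 5 each.

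**Figure D3:**
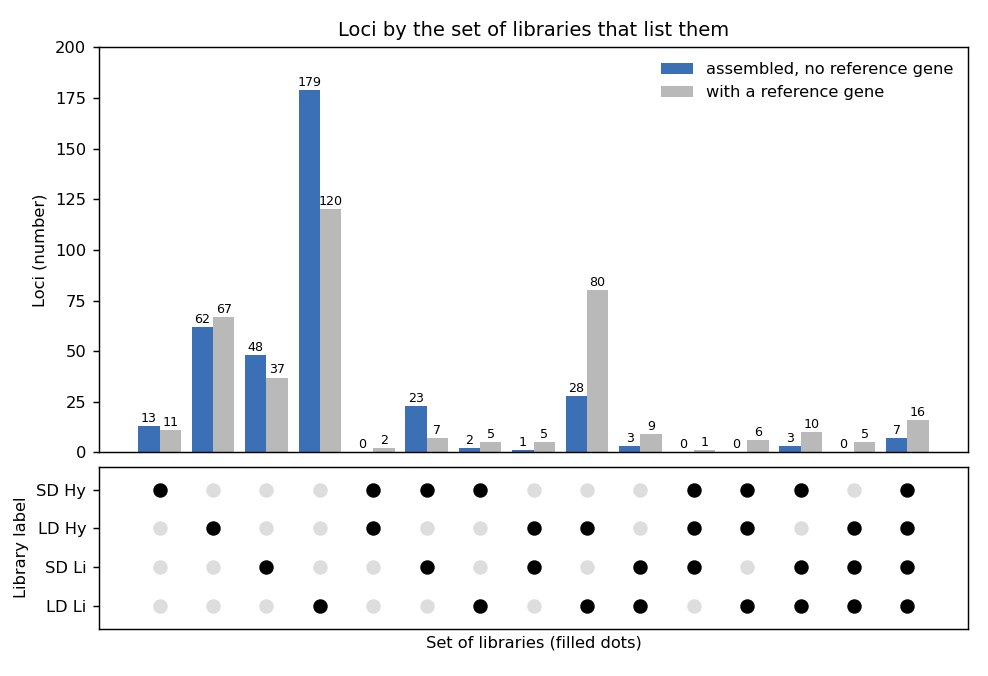
Number of loci (vertical axis) by the set of libraries that list them (filled dots under each pair of bars), for the 369 assembled loci and the 381 loci with a reference gene. Among sets of 2 libraries, SD Hy with SD Li (23) and LD Hy with LD Li (28) hold the most assembled loci, and SD Hy with LD Hy holds 0 of them.

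As a share of each list, the 33 loci common to the SD pair were 68.8% of those in SD Hy and 38.8% of those in SD Li. For reference loci these shares were 58.6% and 37.8%. The 35 loci common to the LD pair were 35.7% of those in LD Hy and 15.8% of those in LD Li, against 58.8% and 42.6% of reference loci. The pair labelled hypothalamus had 7 loci in common, 14.6% of SD Hy and 7.14% of LD Hy, and these are the 7 of all 4 libraries. The pair labelled liver had 13, or 15.3% of SD Li and 5.86% of LD Li. The libraries LD Hy and SD Li, whose markers match their tissue labels, shared 8. SD Hy and LD Li, whose markers go against their labels, shared 12. Both counts include the 7 loci of all 4 libraries.

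Being listed again went with the highest coverage of a locus. That value is the maximum over the libraries that list the locus. It is therefore taken over more values for loci listed several times, which favours a higher maximum there. Of 188 loci whose highest coverage was under 3, 5 (2.66%) stood in several libraries. The share was 12.7% of 102 loci between 3 and 4, 37.8% of 37 between 4 and 5, 78.1% of 32 between 5 and 10, and 100% of the 10 loci at 10 or more. Of those 10, all stood in both SD libraries and 6 in both LD libraries. The loci that only the SD pair listed had a median highest coverage of 6.94, and those that only the LD pair listed 4.44, next to 2.80 to 3.01 for loci of 1 library.

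At 5 of the 7 loci listed in every library, both SD values were above both LD values. Besides the 5 leading loci these are a locus of 7 exons on JH603257.1 (3400656 to 3404379, minus strand) and one of 13 exons on JH603387.1 (81552 to 89354, minus strand). The first had 1092 FPKM in SD Hy, 330 in LD Hy, 1113 in SD Li and 281 in LD Li. Its SD values lie close together and well above its LD values. All 6 introns were the same in the 4 libraries, and the assembled lengths were 1744, 1744, 1714 and 1734 bases, so the lengths differed little. No listed reference gene shares its scaffold. The summed FPKM of all listed transcripts, which includes these loci, was also higher in the SD libraries. It was 745616 in SD Hy and 774227 in SD Li, against 608018 in LD Hy and 594286 in LD Li. ENSFALG00000015949, the reference gene near the locus on JH603866.1, had 4678, 3716, 6096 and 3688 FPKM in SD Hy, LD Hy, SD Li and LD Li. Its SD values were thus also above its LD values. The 16 reference loci listed in every library were not counted by this order. Whether the order is particular to assembled loci was therefore not tested.

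The locus on JH603387.1 had 188, 248, 204 and 144 FPKM in SD Hy, LD Hy, SD Li and LD Li. These had no order by the season in the title or by tissue label. Assembled lengths were 1232, 1494, 2325 and 2293 bases. It had 7, 8, 12 and 12 introns in these libraries, of which 5 stood in all 4.

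Where both libraries listed a locus, they were compared as a log2 ratio after adding 1 to each FPKM, and 2-fold or more was called a change. The floor narrows what these ratios can show, since a locus that falls far is no longer listed. In LD Hy over SD Hy, 0 of 7 loci were at least 2-fold higher and 2 lower, where 21.9% and 12.5% of all 32 loci listed in both were. The 2 lower ones were JH603257.1 (log2 ratio -1.72) and JH603866.1 (-1.73, from 500 assembled bases in SD Hy and 807 in LD Hy). On aligned bases per aligned megabase, a scale not divided by length, they stood at -1.73 and -1.04. The other 5 lay between -0.60 and 0.40. Over all 32 loci the median log2 ratio was -0.27. Centred on it, JH603257.1 stood at -1.46, JH603866.1 at -1.47 and JH603418.1 at -0.34. JH604008.1 and the minus strand of JH603816.1 stood at -0.08 each. The plus strand of JH603816.1 and JH603387.1 stood at 0.23 and 0.67.

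In LD Li over SD Li, 0 of 13 loci were higher and 4 lower, beside 18.9% higher and 18.9% lower among all 53 loci in both. The lowest ratio was that of a locus without a strand on JH603177.1 (9720797 to 9721428), at -2.66. It had 939 FPKM in SD Hy, 894 in SD Li and 141 in LD Li, the last at a coverage of 2.5, and was not listed in LD Hy. JH603257.1 stood at -1.98, JH603866.1 at -1.07 and JH603418.1 at -1.02. With ratios centred on the median of all loci (-0.36), 2 of these 4 were still 2-fold lower, JH603177.1 and JH603257.1. The highest ratio was that of the plus strand of JH603816.1, at 0.55.

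In SD Li over SD Hy, 2 of 33 loci were higher and 2 lower, beside 7.46% and 13.4% of all 67 loci in both, with a median log2 ratio of 0.03. A locus of 4 exons on JH603178.1 (11024549 to 11028701), 72055 bases upstream of EIF4A2, which encodes a translation factor, had 189 FPKM in SD Hy and 443 in SD Li (1.23, and 1.26 without division by length). It was in neither LD library. The locus of 24 exons on JH603271.1 had 206 and 470 FPKM (1.19), but the latter sums 2 transcripts that do not overlap, and its ratio was 0.20 without division by length. The 2 lower loci, on JH603262.1 (531731 to 532225, -1.20) and JH603194.1 (6220809 to 6234874, -1.05), were both longer in SD Li and moved to -0.21 and -0.71. The only locus 2-fold lower on that scale was another one, on JH603221.1 (1129802 to 1138671, -1.27), assembled over 1019 bases in SD Hy and 541 in SD Li. On the same scale 3 loci were 2-fold higher. Besides the locus on JH603178.1, they were on JH603331.1 (from 104881, 1.21) and JH603387.1 (from 81552, 1.03). The latter 2 were assembled over 977 and 1232 bases in SD Hy and 1151 and 2325 in SD Li. The share of all loci in both that pass 2-fold on this scale was not worked out.

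In LD Li over LD Hy, 0 of 35 loci were higher and 1 lower, beside 14.1% and 12.7% of all 142 loci in both, with a median of 0.01. The lower one, of 6 exons on JH603178.1 (10589086 to 10593471), had 536 FPKM in LD Hy and 255 in LD Li (-1.07) and stood at -0.55 without division by length. The highest were JH603205.1 (4469178 to 4588696; 200 and 357 FPKM, 0.83) and JH603178.1 (4145946 to 4159186; 226 and 402 FPKM, 0.83). At the first, LD Hy held 400 bases in 1 exon and LD Li 3231 bases in 7 exons, so the values do not measure the same stretch. Without division by length its ratio was 3.83. On that scale 3 loci were higher, the others being on JH603324.1 (639744 to 645597, 1.197) and JH603223.1 (636135 to 780024, 1.10), and the 1 lower locus was on JH603353.1 (865457 to 870617, -1.98). These 4 loci differed in assembled length between the libraries, and each was assembled longer in the library where it was higher. Here too, the share of all loci in both was not worked out on that scale.

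**Figure D4:**
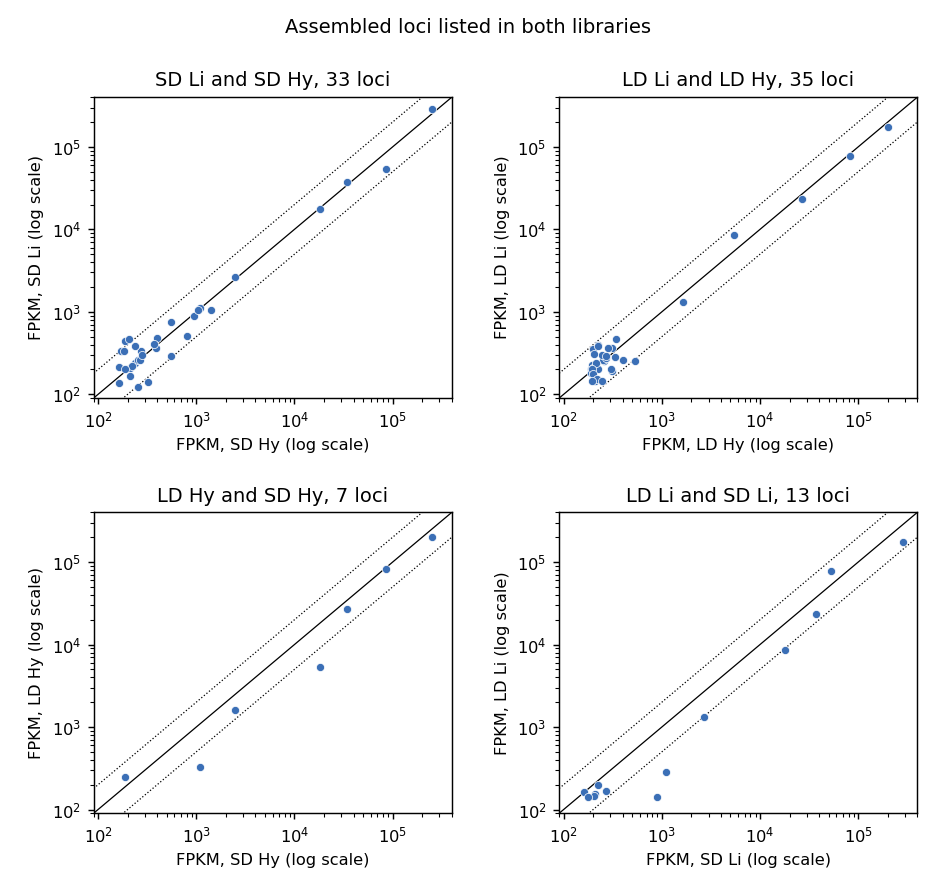
FPKM of assembled loci in the libraries of each comparison, on log scales, 1 point for each locus listed in both; the solid line marks equal values and the dotted lines 2-fold. Points of the pairs with the same season in the title (upper panels, 33 and 35 loci) mostly lie within 2-fold. In the lower panels (7 and 13 loci) the points beyond 2-fold lie on the side of SD.

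Among loci listed in a single library the highest level was 392 FPKM. The highest in SD Hy alone was a locus of 5 exons on JH603211.1 (4600295 to 4602836) at 288 FPKM. LD Hy alone had loci on JH603248.1 at 392 FPKM (3514479 to 3518141, 4 exons) and 373 FPKM (3551554 to 3562677, 9 exons). SD Li alone had one on JH603178.1 at 284 FPKM (4463011 to 4463225, 1 exon). In LD Li alone the highest was on JH603216.1 (5263753 to 5270316), with 6 exons and 372 FPKM. All 5 were under 3 times the floor of their library, and not being listed elsewhere gives no size to a difference.

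Few loci lay near a listed reference gene. For 290 loci a reference gene was listed on the same scaffold in any library, at a median distance of 609070 bases, with quartiles of 156060 and 1702920 bases. A further 79 loci had none. Only listed genes were measured, so an annotated gene that no library listed may lie closer. The nearest gene was on the same strand for 113 loci and on the opposite strand for 121, and 56 loci had no strand. On the same strand, 58 lay upstream and 55 downstream of the gene.

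Within 5000 bases there were 14 loci (4.83% of 290), and 11 of them had no strand and 1 exon. Of these 11, 9 lay downstream of the gene and 2 inside its span, and 0 lay upstream. At any distance, 33 of the 56 loci without a strand lay downstream, 21 upstream and 2 inside the span. No locus was within 5000 bases of a gene on the same strand, where the rule itself removes loci that touch the gene. LD Li listed 11 of the 14 loci, and the nearby gene in all 11 cases. The same library listed 222 of all 369 assembled loci and 251 of the 381 reference loci. Without LD Li the share within 5000 bases was 1.52%.

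The closest downstream locus lay 70 bases beyond ARF1, a GTPase of Golgi traffic, on JH603290.1 (1534972 to 1535848), with 166 FPKM where ARF1 had 36.6, both in LD Li alone. Next was a locus 142 bases beyond P2RY1, a receptor for ADP (144 FPKM, the gene 71.2). Past GPM6B, which encodes a brain proteolipid, 2 loci followed at 1038 and 1768 bases (209 and 159 FPKM, the gene 87.1). A locus 1733 bases beyond HTR1B, a serotonin receptor, had 146 FPKM, and the gene 105. These 5 loci were in LD Li alone, each above its gene, which the floor on assembled loci favours.

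At 3 of the 14 loci the gene was listed only in libraries that did not list the locus. Values are given for 2 of them. A locus 4832 bases beyond FAXC had 226 FPKM in LD Hy, and the gene 83.8 in LD Li. A locus 1638 bases beyond ENSFALG00000014131 had 136 FPKM in SD Li, and that gene 19.6 in SD Hy and 31.4 in LD Hy.

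On the opposite strand, 1 locus overlapped a reference exon. It lay on JH603180.1 (7826137 to 7826608), shared 102 bases with an exon of ENSFALG00000009442 and had 141 FPKM in LD Li, where the gene had 23.7. The nearest spliced locus on the same strand as a gene, on JH603331.1 (1206724 to 1208686), lay 6681 bases downstream of ENSFALG00000015873. It had 221 FPKM in SD Hy, 222 in SD Li and 196 in LD Li, while that gene was listed in LD Hy alone (6.28 FPKM). A locus of 5 exons lay 18025 bases downstream of TPI1, the glycolytic enzyme triosephosphate isomerase, and was listed in LD Li alone.

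**Figure D5:**
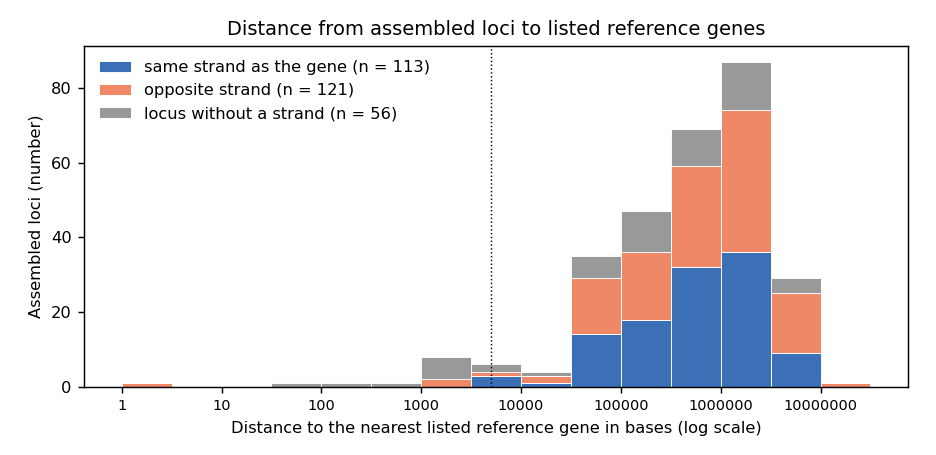
Number of assembled loci by distance in bases (log scale) to the nearest listed reference gene on the same scaffold, for 113 loci on the strand of the gene, 121 on the opposite strand and 56 without a strand. The dotted line marks 5000 bases, with 14 loci to its left, and the bulk of the distances is above 100000 bases.

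Some assembled loci lay beside one another. With a limit of 5000 bases between neighbours, chosen after the values were seen, 63 loci formed 30 runs, 27 of 2 loci and 3 of 3. Of the 20 neighbouring pairs with a strand on both sides, 19 were on the same strand, the exception being JH603816.1. Of all 33 neighbouring pairs, 30 had a library in common, 10 were listed in SD libraries alone and 19 in LD libraries alone, and 0 joined a locus of SD libraries alone to one of LD libraries alone. Among all 369 loci, 13 were in SD Hy alone, 48 in SD Li alone and 23 in these libraries only. For LD Hy, LD Li and both of these only, the numbers were 62, 179 and 28. Neighbouring reference loci were not counted, so whether the pattern is particular to assembled loci was not tested. Neighbours in a run were not joined by any transcript, and whether they are pieces of 1 transcript was not tested.

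On JH603177.1 a run held 3 loci, with gaps of 131 and 1320 bases. The first (9720036 to 9720665) had 553 FPKM in SD Hy and 296 in SD Li, the second is the locus with the lowest ratio between the liver labels, and the third (9722749 to 9725938, 3 exons, minus strand) had 1426 and 1067 FPKM. The first and the third were in neither LD library. A run on JH603331.1 joined the locus of 17 blocks (summed over 2 transcripts in each library, 806 FPKM in SD Hy and 515 in SD Li) to one of 6 exons, 1112 bases before it (172 and 338 FPKM), and a run on JH603370.1 joined loci of 15 exons (278 and 302 FPKM) and 7 exons (183 and 340 FPKM), 2589 bases apart. These 4 were listed in SD Hy and SD Li alone. On JH603248.1, in LD Hy alone, loci of 12 and 9 exons lay 2822 bases apart.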

How the data were processed

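The deposited files hold 1 transcript assembly per library, made by the authors with StringTie 1.3.3b from a trimmed alignment and guided by the Ensembl 89 annotation of FicAlb_1.4, per the file headers. Neither aligner nor trimming tool is given in the sources used here. The command in the file headers sets no option that keeps reference transcripts alone. For each transcript the deposited text gives coverage, FPKM and TPM, and other columns hold positions.

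Transcripts were joined with Python 3.11.15 by the stated rule, and one without a strand went with the locus or reference gene that it overlapped most. The joining was tested on simulated assemblies. FPKM was summed per locus. Ratios are log2(FPKM + 1), called at 2-fold, which understates changes of low values. Distances run between nearest exon edges. Depth was taken from coverage over FPKM. Reads per locus are unknown, so no counting interval is given.

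Loci named are the 5 highest per library, those in all 4, the 5 with most exons and the 5 longest, the 3 highest and 3 lowest ratios of each comparison, the 3 highest listed once in each library, and the 5 nearest to a gene on each strand, of which the text gives a part. Loci without a strand near genes, those in runs and those called on aligned bases alone were named after their values were seen. The rule for members and the lists were chosen with earlier results of these data known. Groups follow the titles. Alternatives changed the joining, the coverage minimum, the pseudocount, the scale and the libraries. One locus near a listed gene is not reported here.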

Additional observations from a re-analysis of the deposited data

Results flagged for a closer look

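At 2 of the 7 loci listed in all 4 libraries, the LD to SD ratio had opposite signs under the 2 tissue labels, which was not tested, since each group has 1 library. The plus strand of JH603816.1 had a log2 ratio of 0.55 under the liver label and -0.031 under the hypothalamus label. Its signs were the same under both labels with deposited TPM (0.92 and 0.25) and with ratios centred on the median of all loci (0.90 and 0.23). The locus of 13 exons on JH603387.1 had -0.49 under the liver label and 0.40 under the hypothalamus label, and its signs stayed opposite with TPM (-0.13 and 0.68) and with centred ratios (-0.14 and 0.67). None of these 4 ratios reached 2-fold.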

How the results depend on the processing

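No paired analysis was possible because each group has 1 library. Of 240 alternative values of 48 ratios of single loci, 231 stayed within 1.5-fold of the reported ratio and 9 moved further. All 9 were on aligned bases per aligned megabase, and none of those called changed sign. The other alternatives could hardly move a single ratio. TPM and centring shift all ratios of a comparison nearly alike, and a pseudocount has little effect above the floor. The 48 ratios are those of loci named by the rule, and ratios of other loci were not included. Asking for a coverage of 5 left 43 loci, with 15 in several libraries, 15 shared by the SD pair, 5 by the LD pair and 5 by the liver labels, a median highest coverage of 7.02 and FPKM of 383; it left 1 lower locus in LD Hy over SD Hy, 2 in LD Li over SD Li, 0 higher and 0 lower in SD Li over SD Hy, and 0 lower in LD Li over LD Hy. Leaving out each library in turn gave 196 to 360 loci, 71.8% to 76.5% of them with several exons, 576.5 to 612 bases, coverage of 2.98 to 3.04, FPKM of 169 to 205, 1.52% to 5.12% within 5000 bases of a gene and 17.3% to 27.3% downstream on its strand. Leaving out SD Hy and LD Li, an alternative chosen after seeing the data, left 188. Without transcripts lacking a strand, 89.5% of loci had several exons, and 1.28% of loci with a strand were within 5000 bases; 1.38% of all were within 1000. The 10 highest loci were also left out, both from the assembled loci and from the listed total. Of the remaining FPKM, assembled loci then held 2.66%, 6.89%, 4.0% and 12.6% in SD Hy, LD Hy, SD Li and LD Li. Of the remaining listed aligned bases they held 22.0%, 29.5%, 31.0% and 40.9%. In LD Li over SD Li, 2 loci were lower with TPM and 2 with centred ratios. On aligned bases per megabase, 3 were higher and 1 lower in SD Li over SD Hy, the lower one not called on FPKM. On that scale 3 were higher in LD Li over LD Hy, and no share over all listed loci was worked out. With unlisted loci at 0, 91 were higher and 43 lower (median 7.62) in LD Hy over SD Hy, 209 and 76 (7.28) in LD Li over SD Li, 54 and 17 (6.93) in SD Li over SD Hy, and 187 and 64 (7.24) in LD Li over LD Hy. Every listed locus is above the floor, so a locus listed in only 1 library of a comparison is always called here. These counts therefore restate the listing and give no size to a difference. Fewer loci enter at a higher coverage, TPM and centring shift all ratios of a comparison nearly alike, and aligned bases depend on the assembled length. The cause of the remaining shifts was not tested. Depth limits the listing, since an unlisted locus may lie just below the coverage limit.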
